A study of Homo sapiens with 6 samples.

Results

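The 34 genes described here encode the proteins that carry glucose into the cell, turn it into pyruvate and lactate, move lactate across the plasma membrane and set how much pyruvate enters the mitochondria. They were chosen by symbol and found in the deposited tables through their Ensembl identifiers. All 34 were present among 61496 features, and all 34 had enough counts to be tested. The cells were U251, an established human glioma cell line, grown in DMEM with fetal bovine serum. There were 3 libraries of untreated cells, called control, and 3 libraries of cells exposed to sevoflurane (Sev), an inhaled anesthetic, for 2 h. The treatment protocol lists several concentrations, from 1.7% to 5.1%, and the label of a single library gives the time but no concentration. The highest of these is the one named in the study for the sequenced cells. No source used here names the gas that the control cells were kept in during those 2 h, or says of the sequenced libraries of a group that they came from separate cultures, so p-values measure the spread between these libraries. The comparison asks which transcripts of this pathway differ between U251 cells with and without Sev.

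Glycolysis splits glucose into pyruvate in the cytosol. Hexokinases trap glucose as a phosphate ester, phosphofructokinase commits it to breakdown, and the enzymes from GAPDH to pyruvate kinase yield ATP and NADH. Pyruvate is then either reduced to lactate by lactate dehydrogenase and exported, or oxidized in mitochondria by the pyruvate dehydrogenase complex, which pyruvate dehydrogenase kinases (PDK) switch off by phosphorylation. Glioma cells are known for high glucose uptake and lactate release, and several of these genes are known targets of hypoxia-inducible factor.

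Library totals were between 38624292 and 46318311 counts, and the 34 genes took between 1.63% and 2.09% of them. Control 1 had the lowest share, and 23 of the 34 genes were lowest in control 1 among the 3 control libraries. Levels below are counts scaled to a common library size (CPM) after normalization by the trimmed mean of M values, unless FPKM (fragment counts scaled by transcript length and library size) is named. The glioma markers VIM, at 5123 to 6497 CPM, and NES, at 1391 to 1735 CPM, were high in all 6 libraries. CDKN2A and CDKN2B, commonly described as deleted in U251, had 0 counts in all 6. Of 10 markers of other cell types 7 had enough counts to be tested, and 3 of these passed as higher with Sev, PECAM1, KRT18 and MBP. The level summed over the 10 was 30.5 to 33.6 CPM in control and 43.8 to 47.96 CPM with Sev, most of it KRT18. PTPRC, EPCAM and MOG had at most 12, 5 and 15 counts and were not tested. Of the others, SYP reached 32 counts, PECAM1 55, RBFOX3 76, CD68 and VWF 198 each, MBP 241 and KRT18 1163. Of 7 glioma markers, all tested, CD44 and EGFR rose and SOX2 and S100B fell. Among all features tested, 22.1% were called higher and 21.5% lower. The part of these markers in the results was not tested.

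After 2 h of Sev, 8 of the 34 genes fell and 4 rose, with an adjusted p under 0.05 over all 27514 features tested. The 8 that fell were SLC2A3, PFKFB4, PDK4, ENO2, PDK1, HK2, SLC16A3 and HKDC1, and the 4 that rose were BPGM, SLC2A1, LDHB and SLC16A1. Those that fell encode a glucose transporter, 2 hexokinases, an enzyme that sets the activator of phosphofructokinase, an enolase, a lactate exporter and 2 PDK enzymes. Those that rose encode a glucose transporter, a lactate dehydrogenase subunit, a lactate carrier and an enzyme of a side branch. The 12 calls make 35.29% of the 34 genes, beside 43.7% of all features tested. In each direction, 22.1% of all features were called higher and 21.5% lower. The share of calls among the 34 genes was therefore no larger than that of all features.

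The sizes lay mostly below the cutoff of the study, a log2 fold change beyond 1 in either direction with an unadjusted p under 0.05. In edgeR's quasi-likelihood test 5 genes passed it as lower, SLC2A3, PFKFB4, PDK4, ENO2 and PDK1, while 12.0% of all features did. PDK1 no longer passed it without control 2 (-0.97), with the length trend removed or in limma on log2(FPKM + 1). PDK4 no longer did without Sev 1 (-0.998) or in limma on log2(FPKM + 1) without the filter on low values (-0.259). HK2 passed it as a further gene without control 1 (-1.09), with scaling by library size alone and in limma on log2(FPKM + 0.1). None of the 34 genes passed it as higher, against 11.4% of all features. At an unadjusted p under 0.05 alone, 5 of the 34 were higher and 10 lower, beside 26.1% and 26.0% of all features. DESeq2 also placed 0 of them past the cutoff as higher. The 3 Sev libraries lay wholly above the 3 control libraries for 7 genes and wholly below them for 9, and the groups overlapped for 18. Over all features, the groups were separate and higher with Sev in 28.3% and separate and lower in 28.2%. The median log2 fold change of the 34 genes was -0.08, with 16 positive and 18 negative values, and that of all features was -0.01. Without Sev 3, the median of the 34 genes was 0.00795.

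Leaving out 1 library changed these counts. The number that rose was 2 without control 1, control 2 or Sev 1, and 1 without control 3. The number that fell was 5 without control 3. Scaling by library size alone lowered the median of all features by 0.14 on the log2 scale and gave 3 genes higher and 12 lower, and among all features it gave 4665 higher and 7502 lower calls in place of 6094 and 5920. SLC2A3, PFKFB4, PDK1, HK2 and ENO2 passed the test in each of the 16 other settings tried.

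**Figure D1:**
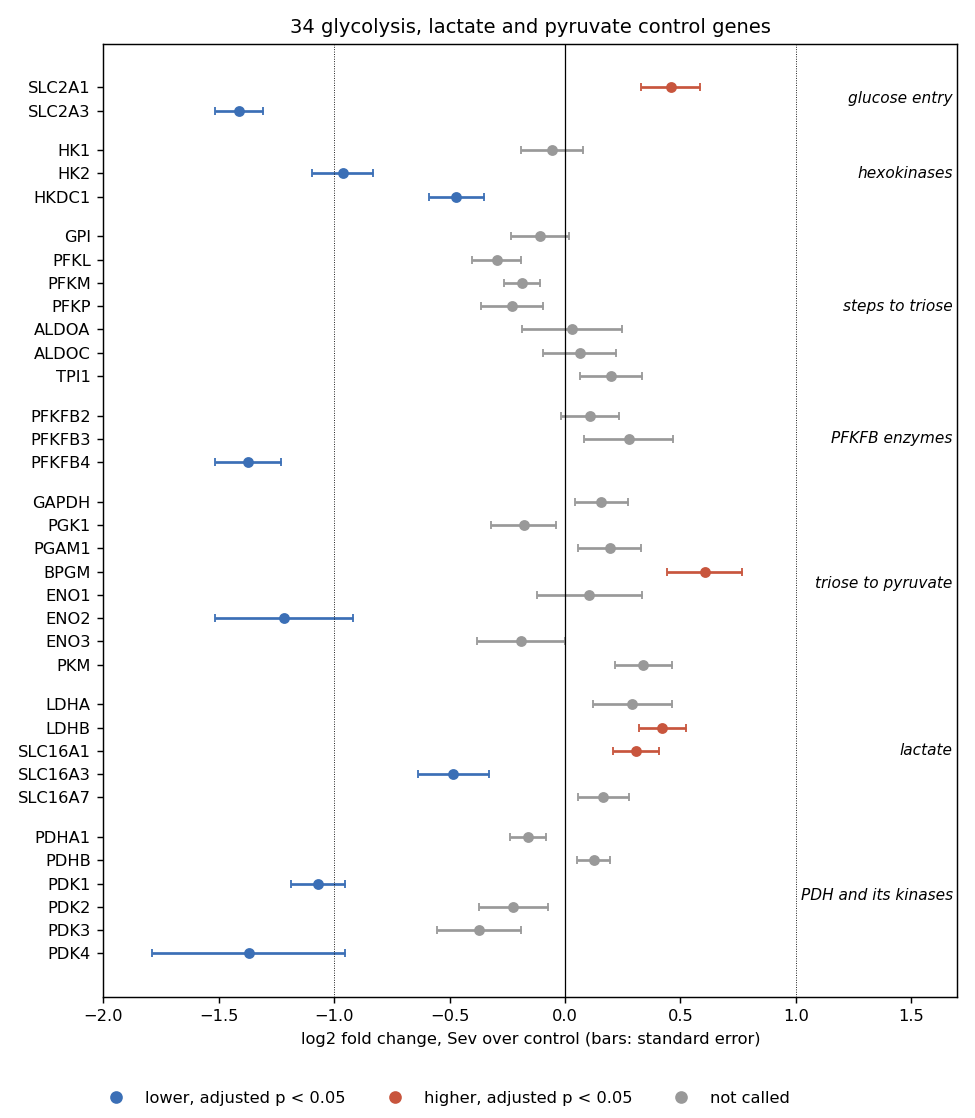
Log2 fold change of the 34 genes, Sev over control, with the standard error as a horizontal bar, in pathway order. Points of genes that fell with an adjusted p under 0.05 are blue, those that rose are red and the others grey, and dotted lines mark the cutoff of 1 in either direction. The 5 lowest points are SLC2A3, PFKFB4, PDK4, ENO2 and PDK1, and no gene reaches 1 on the right.

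The promoters of 4 called genes are printed to show which letters lie around their start sites, PFKFB4 and PDK1 for those that fell and LDHB and BPGM for those that rose. These had the smallest p-values in each direction among the 31 of the 34 genes matched by symbol in the set of RefSeq promoter windows used here, on GRCh38.p14. SLC2A3, SLC16A1 and PFKFB2 were not matched in that set. Each window runs 5′ to 3′ on the strand of the gene, from 250 bases before its RefSeq start to 50 after. The gene bounds given below are those of GENCODE 29 and span all its transcripts, so that the windows of LDHB and PFKFB4 lie inside these bounds. Capitals mark the core of the hypoxia-response element, searched as ACGTG and GCGTG on both strands, so that a match on the other strand reads CACGT or CACGC. The first form is also part of the E-box letters CACGTG. PFKFB4 lies at chr3:48556754-48557053 on the minus strand, PDK1 at chr2:172555123-172555422 on the plus strand, LDHB at chr12:21657793-21658092 on the minus strand and BPGM at chr7:134646603-134646902 on the plus strand.
PFKFB4: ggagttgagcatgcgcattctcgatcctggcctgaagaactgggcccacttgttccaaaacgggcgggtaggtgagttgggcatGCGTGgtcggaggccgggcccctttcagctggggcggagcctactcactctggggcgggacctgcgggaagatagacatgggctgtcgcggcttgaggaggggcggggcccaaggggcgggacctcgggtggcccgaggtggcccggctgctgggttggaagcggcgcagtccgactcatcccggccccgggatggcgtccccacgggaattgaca
PDK1: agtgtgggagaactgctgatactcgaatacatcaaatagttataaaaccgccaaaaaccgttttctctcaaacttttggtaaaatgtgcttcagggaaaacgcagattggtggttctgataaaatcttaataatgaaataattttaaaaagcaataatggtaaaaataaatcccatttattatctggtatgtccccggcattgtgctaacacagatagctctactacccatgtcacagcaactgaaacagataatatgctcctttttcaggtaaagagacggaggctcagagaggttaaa
LDHB: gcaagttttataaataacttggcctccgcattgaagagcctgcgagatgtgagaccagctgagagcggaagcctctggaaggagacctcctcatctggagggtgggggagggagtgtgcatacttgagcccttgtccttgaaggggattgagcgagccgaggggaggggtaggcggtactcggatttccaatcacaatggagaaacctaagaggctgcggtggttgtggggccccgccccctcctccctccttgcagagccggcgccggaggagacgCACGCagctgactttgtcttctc
BPGM: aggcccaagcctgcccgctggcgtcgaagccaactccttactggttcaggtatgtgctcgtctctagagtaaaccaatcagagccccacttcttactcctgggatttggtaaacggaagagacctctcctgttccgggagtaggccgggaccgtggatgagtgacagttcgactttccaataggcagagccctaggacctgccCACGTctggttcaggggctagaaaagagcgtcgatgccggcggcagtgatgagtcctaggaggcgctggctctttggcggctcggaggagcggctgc

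PFKFB4, LDHB and BPGM each hold 1 match in this window and PDK1 holds 0. Of all 35116 promoter windows of this length, 48.4% hold at least 1 match. Among the 34 genes it was found in 4 of 7 windows of genes that fell, in 3 of 3 of genes that rose and in 14 of 21 of the others. HK2 held 3 matches, ENO2 and HKDC1 1 each, and PDK4 and SLC16A3 0. A match is a description of these letters only.

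The transcripts of the 2 glucose transporters among the 34 genes moved in opposite directions. SLC2A3 encodes GLUT3, a high-affinity glucose transporter best known from neurons, and lies at chr12:7919230-7936275 on GRCh38. It had 73.6, 62.5 and 65.1 CPM in the control libraries and 24.5, 27.5 and 23.5 CPM with Sev. All 3 Sev libraries lay far below all 3 control libraries. SLC2A3 fell by 1.41 on the log2 scale (SE 0.10, adjusted p = 0.000115), a 2.66-fold lower level. In these bulk libraries, fewer cells of a type and less RNA per cell cannot be told apart. SLC2A1 encodes GLUT1, the basal glucose transporter of most dividing cells, at chr1:42925375-42959176. It had 549, 661 and 604 CPM in control and 774, 981 and 737 CPM with Sev, without overlap. SLC2A1 rose by 0.46 (SE 0.13, adjusted p = 0.0221), and the adjusted p was 0.0745 without control 1 and 0.0679 without control 3. In limma on log2(FPKM + 1) it was 0.0535. The 3 features named as copies of SLC2A3 took 3.85% of the counts summed with it.

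The hexokinases, which phosphorylate glucose, did not move together. HK2 encodes the inducible, mitochondria-bound form that many tumors raise, at chr2:74833981-74893359. It had 77.8, 112 and 89.4 CPM in control and 48.2, 49.0 and 45.8 CPM with Sev. The lowest control library lay well above the highest Sev library. HK2 fell by 0.96 (SE 0.13, adjusted p = 0.0011), just short of the cutoff of 1. HKDC1, a less studied hexokinase homolog next to HK1 on chromosome 10, had 13.1, 11.8 and 13.8 CPM in control and 8.999, 9.45 and 9.49 CPM with Sev, without overlap. It fell by 0.47 (SE 0.12, adjusted p = 0.0143), and this adjusted p was 0.0588 without control 3 and 0.0538 without Sev 1. HK1, the constitutive form and the most abundant hexokinase here, had a log2 fold change of -0.06 (SE 0.13), and its groups overlapped.

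None of the 7 genes from glucose phosphate to triose phosphate passed the test. Their values were -0.11 for GPI, which isomerizes glucose phosphate, -0.30, -0.19 and -0.23 for the phosphofructokinases PFKL, PFKM and PFKP, 0.03 and 0.06 for the aldolases ALDOA and ALDOC, and 0.20 for TPI1, the triose phosphate isomerase. At an unadjusted p under 0.05 there were 2, PFKL and PFKM, beside 52.0% of all features in either direction, and DESeq2 also called 0 of the 7. PFKL had the smallest adjusted p of them, 0.0549, which was 0.028 without control 1 and 0.0309 without Sev 2. The 3 phosphofructokinases passed the test as lower in limma on log2(FPKM + 1) and with scaling by library size alone. The log2 fold changes of ALDOA and ALDOC turned negative with scaling by library size alone. ALDOA shares its strand and position with ENSG00000285043, whose counts summed to 20% of those of ALDOA and ranged from 2256 to 9125 between libraries, so that the split of reads between them is uncertain. The same holds for ALDOC, since ENSG00000258472 on its strand had 1269 counts in all against 1011 of ALDOC. SENP1 overlaps PFKM on the opposite strand with 45.6% of its counts.

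The PFKFB enzymes make and remove the metabolite that activates phosphofructokinase. PFKFB4, one of their hypoxia-responsive forms, lies at chr3:48517684-48562015 and its promoter is printed above. It had 93.1, 121 and 115 CPM in control and 38.9, 50.01 and 37.9 CPM with Sev. The groups were far apart. PFKFB4 fell by 1.37 (SE 0.14, adjusted p = 0.000372), which is 2.59-fold. PFKFB3, the form with the highest ratio of kinase to phosphatase activity, had 209.5, 215 and 214 CPM in control and 238, 345 and 189 CPM with Sev. The Sev libraries lay on both sides of the control libraries, which were close to each other. The log2 fold change of PFKFB3 was 0.28 (SE 0.19, adjusted p = 0.282). It was 0.00884 (adjusted p = 0.956) without Sev 2 and 0.46 (adjusted p = 0.0503) without Sev 3. That of PFKFB2, known as the heart form, was 0.11. YOD1 overlaps PFKFB2 on the opposite strand and had 1401 to 1703 counts in control and 3259 to 3738 with Sev, together 477.5% of those of PFKFB2.

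From triose to pyruvate, none of the abundant enzymes passed the test in edgeR. GAPDH was the internal standard of the study for RNA by PCR and a loading control, beside HSP70, for protein. It had 3622, 4632 and 4376 CPM in control and 4728, 4865 and 4491 CPM with Sev. Control 1 was the lowest and the other libraries were close. Its log2 fold change was 0.16 (SE 0.11, adjusted p = 0.3). PKM, a pyruvate kinase, had 3657, 4072 and 3842 CPM in control and 4599, 5696 and 4338 CPM with Sev. The groups were separate, but its log2 fold change of 0.34 (SE 0.12) had an adjusted p of 0.057. It was 0.0452 without Sev 3 and 0.025 in DESeq2. ENO1, the ubiquitous enolase, had 2183, 4300 and 3981 CPM in control and 3914, 3788 and 3555 CPM with Sev. Control 1 stood far below the rest, and the log2 fold change of ENO1 was 0.11 with it and -0.15 without it. PGK1 at -0.18, PGAM1 at 0.19 and ENO3, the muscle enolase, at -0.19 did not pass the test. PFN1, on the strand opposite to ENO3, had 163155 counts in all against 1385 of ENO3. Without control 1, PGK1 had a log2 fold change of -0.33 (adjusted p = 0.0422).

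ENO2 and BPGM were the exceptions in this stretch. ENO2, the neuron-specific enolase, at chr12:6913745-6923698, had 54.1, 92.7 and 103 CPM in control and 26.5, 50.7 and 30.2 CPM with Sev. The groups were separate, though Sev 2 came close to control 1. ENO2 fell by 1.22 (SE 0.30, adjusted p = 0.0131). The neighbouring LRRC23 overlaps it on the same strand, with counts 11.5% of those of ENO2. BPGM, which makes the bisphosphoglycerate known from red cells in a side branch of glycolysis, lies at chr7:134646808-134679813. It had 25.4, 23.5 and 23.5 CPM in control and 34.2, 46.3 and 29.6 CPM with Sev. All Sev libraries lay above the tight control group. BPGM rose by 0.61 (SE 0.16, adjusted p = 0.0183), and the adjusted p was 0.0581 without control 2 and 0.063 without control 3.

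**Figure D2:**
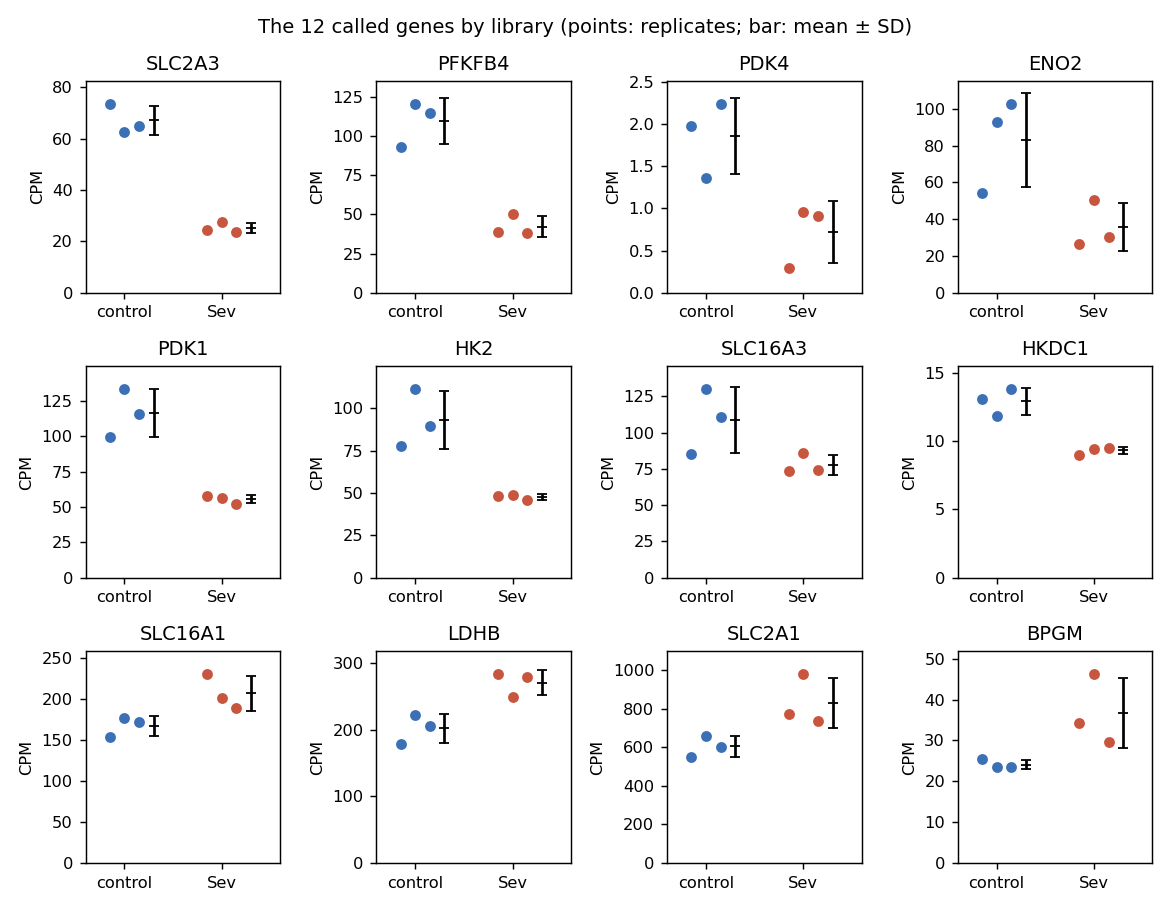
CPM of the 12 genes with an adjusted p under 0.05, 1 point per library, with the mean ± SD beside each group of 3. Each vertical axis starts at 0. The control (blue) and Sev (red) libraries are separate for 11 genes and overlap for SLC16A3, where control 1 at 85.3 CPM lies just below Sev 2 at 85.8 CPM.

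The lactate genes included 2 that rose and 1 that fell. LDHB encodes the lactate dehydrogenase subunit that favors turning lactate back to pyruvate, at chr12:21635342-21757857. It had 179, 222 and 206 CPM in control and 284, 249 and 279 CPM with Sev, without overlap. LDHB rose by 0.42 (SE 0.10, adjusted p = 0.0118), and the adjusted p was 0.0514 without Sev 1 and 0.057 in limma on log2(FPKM + 1). LDHA encodes the subunit that favors lactate. Its row held only 452 to 761 counts, or 10.7, 14.3 and 14.9 CPM in control and 15.5, 14.1 and 19.2 CPM with Sev, and the groups overlapped. The log2 fold change of LDHA was 0.29 (SE 0.17, adjusted p = 0.205). The 6 features named as copies of LDHA took 25.7% to 36.3% of the counts summed with it in control and 11.9% to 18.8% with Sev, and 932 loci with 3.52% to 5.25% of all counts carry no gene name or position. Whether they hold LDHA reads was not tested, so the level of LDHA in these tables is uncertain.

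The plasma membrane carriers of lactate and pyruvate went in opposite directions. SLC16A1 (MCT1, chr1:112911847-112957013), a carrier for uptake or release, had 153, 176 and 172 CPM in control and 230.4, 201 and 189 CPM with Sev. All Sev libraries lay above all control libraries. SLC16A1 rose by 0.31 (SE 0.10, adjusted p = 0.0373). That call was the least stable of the 12: the adjusted p was 0.117, 0.0557 and 0.0891 without control 1, 2 and 3, 0.137 and 0.0541 without Sev 1 and Sev 2, and 0.167 with scaling by library size alone. The antisense transcript SLC16A1-AS1, named here after its values were seen, overlaps it on the other strand and had 776 to 975 counts in control and 100 to 171 with Sev. The sources used here do not give how the counting used strand.

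SLC16A3 (MCT4, chr17:82228397-82261129), the exporter of strongly glycolytic cells, had 85.3, 130.2 and 111 CPM in control and 73.3, 85.8 and 74.4 CPM with Sev. Control 1 fell within the range of the Sev libraries. SLC16A3 fell by 0.48 (SE 0.15, adjusted p = 0.0341). The adjusted p was 0.0968 without control 2, 0.0876 without control 3, 0.108 without Sev 1 and 0.0924 without Sev 3. SLC16A3 also did not pass the test with the length trend removed or without the filter on low counts. CSNK1D overlaps SLC16A3 on the opposite strand with 225.5% of its counts. ENSG00000280407 overlaps it on the same strand with 15.7% of its counts, and had 735, 603 and 850 counts in control and 415, 563 and 459 with Sev. SLC16A7 (MCT2), a low-abundance carrier, had a log2 fold change of 0.17 and did not pass the test.

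Among the genes that gate pyruvate oxidation, the kinases PDK1 and PDK4 fell. PDK1, the hypoxia-responsive kinase, lies at chr2:172555373-172608669 and its promoter is printed above. It had 99.7, 133 and 116 CPM in control and 57.9, 56.1 and 52.2 CPM with Sev. The Sev libraries were close to each other and far below all controls. PDK1 fell by 1.07 (SE 0.12, adjusted p = 0.000431), which is 2.10-fold. PDK4, the kinase known for its response to fasting and fat use, at chr7:95583499-95596491, had 84, 54 and 109 counts in control and 11, 36 and 36 with Sev, or 1.99, 1.36 and 2.25 CPM and 0.292, 0.958 and 0.909 CPM. The groups were separate at low counts. PDK4 fell by 1.37 (SE 0.42, adjusted p = 0.0301), and the adjusted p was 0.0802 without control 1 and 0.0952 without control 3. In limma on log2(FPKM + 1) without the filter on low values, the log2 fold change of PDK4 was -0.259.

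The other genes of this step did not pass the test. PDK2 had a log2 fold change of -0.22 and PDK3 of -0.37, and PDK3 without control 1 had -0.56 (adjusted p = 0.0201). SAMD14 overlaps PDK2 on the opposite strand with 43.3% of its counts. PDHA1 and PDHB, the paired subunits of the dehydrogenase itself, had -0.16 and 0.12. PDHA1 passed the test as lower with scaling by library size alone (-0.30, adjusted p = 0.0231) and in limma on log2(FPKM + 1) (adjusted p = 0.0177). PDHA1 was lower and PDHB higher in every Sev library than in every control library, but the value of PDHB turned to -0.02 with scaling by library size alone.

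Within families of isozymes, the share of each member was taken from FPKM. The length implied by FPKM was 0.987 to 1.41 times the exon union of GENCODE 29 for 33 of the 34 genes and 3.38 times for PDK3, so that the 4 PDK genes are not on 1 length scale in FPKM. Each share is a percentage of the summed FPKM of its family in 1 library, and no test was applied to shares. The largest difference was in the PFKFB family. PFKFB4 made 30.0%, 35.3% and 34.2% of it in control and 13.7%, 12.4% and 16.03% with Sev, while PFKFB3 went from 64.6% ± 2.59 to 83.2% ± 2.76 (SD, n = 3). The groups did not overlap for either gene. PDK1 made 45.4%, 46.4% and 44.8% of the PDK family in control and 36.7%, 33.8% and 31.0% with Sev, without overlap. With counts divided by the exon union instead, an alternative chosen after seeing the data, PDK1 made 28.3% ± 1.20 in control and 19.5% ± 2.18 with Sev, again without overlap. PDK3 then made 59.3% ± 4.56 and 66.6% ± 4.07 in place of 34.9% ± 4.24 and 42.4% ± 4.51 in FPKM, with overlapping groups on both scales. As a share of the counts, which are not scaled by length, PDK1 made 53.9% and 41.7%, and PDK3 made 37.6% ± 3.47 and 47.5% ± 4.28 without overlap.

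In the other families with separate groups, the most abundant member had the higher share with Sev. HK1 went from 80.5% ± 0.996 to 87.8% ± 1.20 and HK2 from 16.2% ± 1.30 to 9.53% ± 0.879. SLC2A1 went from 92.5% ± 1.24 to 97.8% ± 0.150 of the summed SLC2A1 and SLC2A3. For SLC16A1 the share was 70.9% ± 2.71 in control and 80.02% ± 2.30 with Sev, and for SLC16A3 it was 27.0% ± 2.79 and 17.9% ± 2.14. ENO1 went from 96.9% ± 0.289 to 98.7% ± 0.443 of the enolases. PDHB and PDHA1 went from 60.0% and 40.0% to 64.6% and 35.4% of their sum. The shares within phosphofructokinases, aldolases and lactate dehydrogenases overlapped between the groups, with LDHB at 96.9% in control and 97.2% with Sev.

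**Figure D3:**
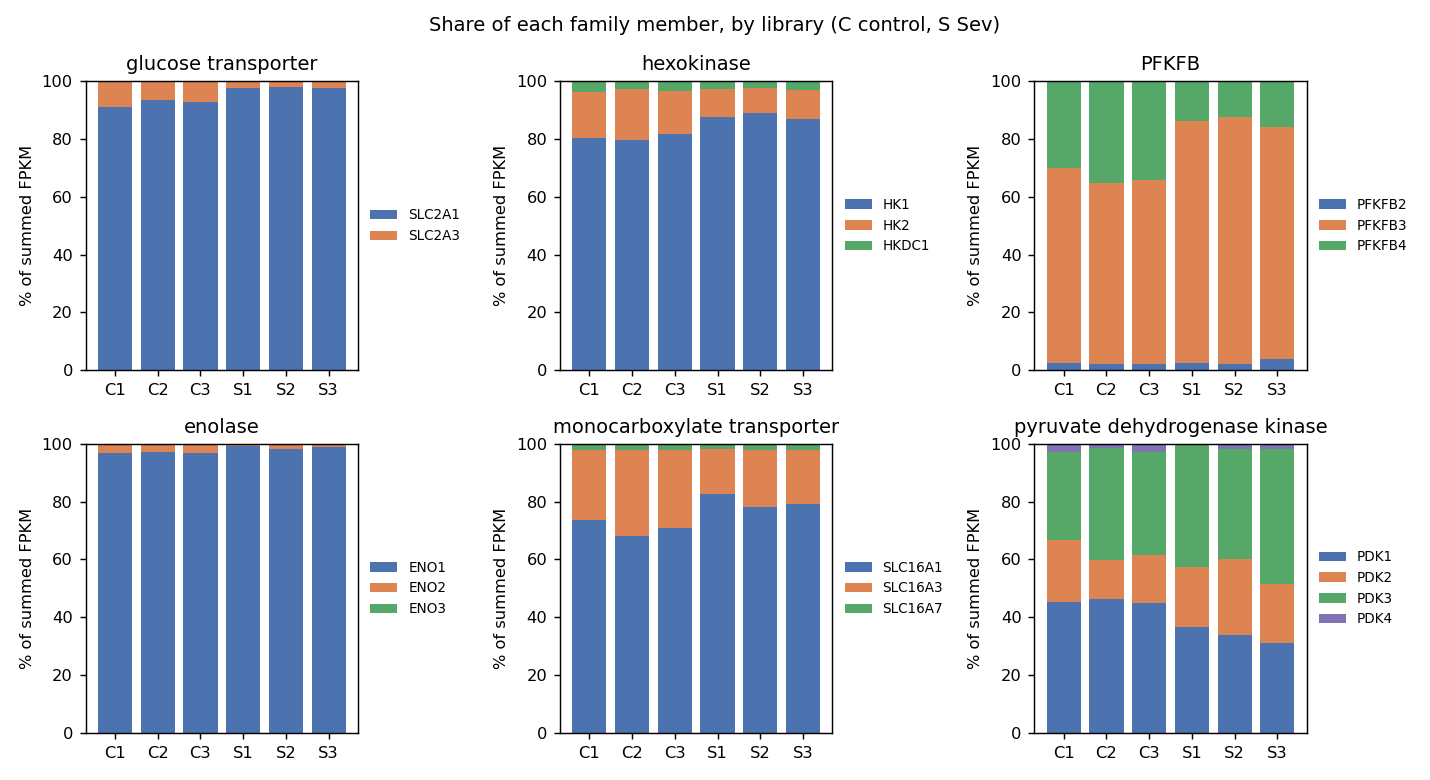
Share of each isozyme in the summed FPKM of its family, in percent, for control (C1 to C3) and Sev (S1 to S3) libraries in 6 families. PFKFB4 takes 30.0% to 35.3% of the PFKFB bar in control and 12.4% to 16.03% with Sev, and the shares of SLC2A3, HK2, ENO2, SLC16A3 and PDK1 are lower in every Sev library than in every control library.

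By level in FPKM, GAPDH came first in every library, at 1320.2 to 1621 in control and 1498 to 1528 with Sev. ENO1, PKM and TPI1 followed in that order by mean in both groups, though ENO1 lay below PKM in control 1. PGK1, ALDOA, PGAM1 and SLC2A1 followed at means of 117 to 180.2 FPKM in control and 138 to 144.5 with Sev, where their libraries overlapped in part and their order is not resolved beyond the spread. SLC2A1 was the eighth of the 34 by mean FPKM in control and the fifth with Sev. ENO2 went from place 15 to 20, PFKFB4 from 16 to 23, HK2 from 19 to 22 and SLC2A3 from 21 to 25, and BPGM went from 23 to 16. LDHA had 1.52 to 2.52 FPKM and HKDC1 had 1.64 to 2.78 FPKM, whereas LDHB had 52.2 to 74.7 FPKM. ALDOC, ENO3, PFKFB2, SLC16A7 and PDK4 had the lowest means, with 1.42 FPKM as the highest value in any library.

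**Figure D4:**
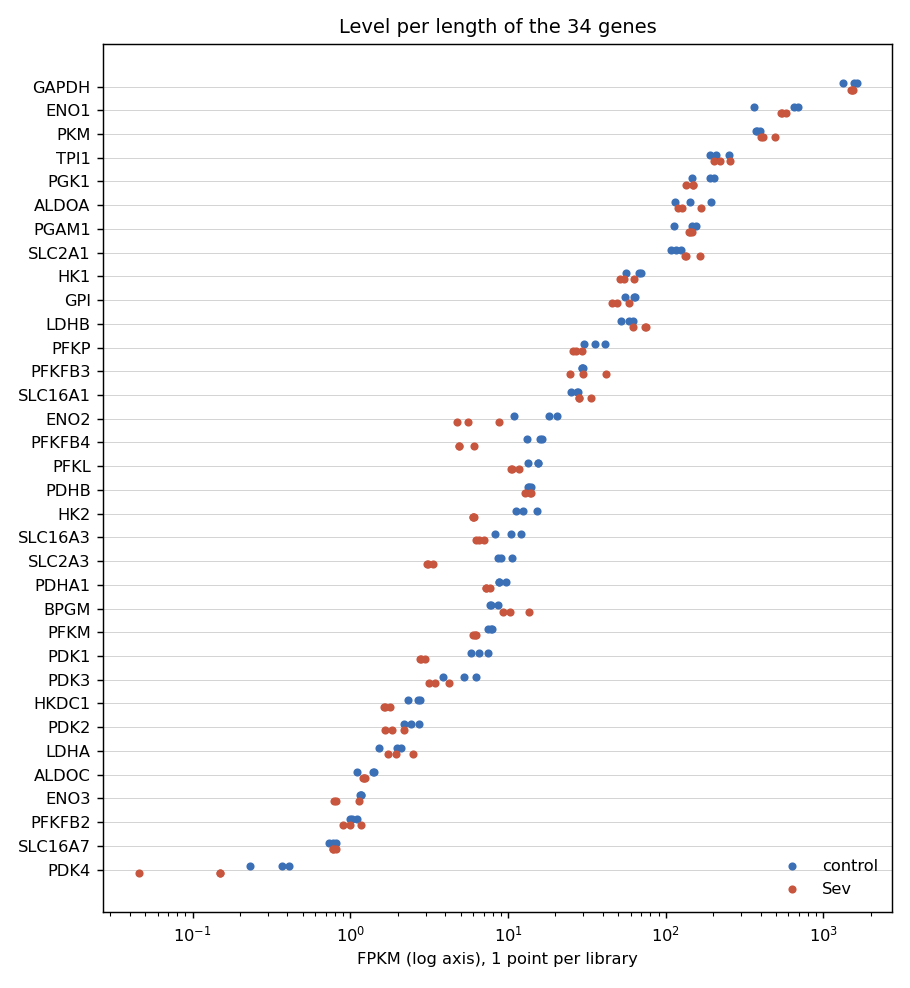
FPKM of the 34 genes on a log axis, 1 point per library, control in blue and Sev in red, ordered by the control mean. GAPDH is the highest in all 6 libraries and PDK4 the lowest, and the levels span from 0.0459 FPKM (PDK4 in Sev 1) to 1621 FPKM (GAPDH in control 2).

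Other genes of sugar and pyruvate metabolism were counted by list, beside the 22.1% and 21.5% of all features called higher and lower. Of 28 other genes of glycolysis and gluconeogenesis, 18 had enough counts to be tested, 3 rose and 4 fell, with a median log2 fold change of -0.19. It was -0.08 without control 1 and -0.0054 without Sev 2, where 19 were tested. It was -0.03 over the 14 genes with at least 10 counts in every library and -0.33 with scaling by library size alone. ADPGK, a glucokinase that uses ADP, fell by 0.75 (adjusted p = 0.000933). MINPP1, a phosphatase that can act on bisphosphoglycerate, fell by 0.47 (adjusted p = 0.00687). PCK1, the cytosolic enzyme of gluconeogenesis, had at most 1.32 CPM and fell by 3.02 (adjusted p = 0.01). Those with the smallest p that rose were PGAM5 at 0.66, a mitochondrial phosphatase named after phosphoglycerate mutase, PKLR at 1.72, the liver pyruvate kinase, at 0.453 to 3.26 CPM, and PGAM4 at 0.45, a retrogene copy of PGAM1 that can share its reads. Scaling by library size alone gave 2 higher and 7 lower in this list.

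Of 9 partners of pyruvate entry and oxidation, 8 were tested, 2 rose and 1 fell, with a median of 0.06 that was -0.03 without control 1 and -0.08 with scaling by library size alone, and also negative in limma on FPKM. PDP2, a phosphatase that reverses the action of the PDK enzymes, had 39.1, 4.57 and 30.2 CPM in control and 3.19, 2.05 and 1.21 CPM with Sev. Control 2 was close to the Sev libraries. PDP2 fell by 3.52 (SE 0.74, adjusted p = 0.0068). PDPR, the regulatory subunit of that phosphatase, rose by 0.72 and MPC2, a subunit of the mitochondrial pyruvate carrier, by 0.36. The count of genes that rose was 1 without control 1, control 3, Sev 1 or Sev 3, and scaling by library size alone gave 1 higher and 2 lower.

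Of 26 other sugar and monocarboxylate carriers and their chaperones, 21 were tested, 3 rose and 5 fell, with a median of -0.27. It was between -0.08 and -0.04 without control 1, control 3 or Sev 2, where 22 were tested. Without the filter on low counts it was 0.03 over 25 genes. SLC2A9, a urate carrier of the glucose transporter family, had 8, 1 and 3 counts, or at most 0.189 CPM, in control and 3.82, 2.21 and 4.57 CPM with Sev, and it rose by 5.22 (SE 0.54, adjusted p = 0.000353). SLC2A8, an intracellular glucose carrier, rose by 0.47. SLC16A13 had 5.48, 3.18 and 4.86 CPM in control and 0.903, 0.798 and 0.732 CPM with Sev, and fell by 2.47 (adjusted p = 0.000367). SLC2A12 fell by 0.77 and SLC2A10 fell by 0.83. BSG, the chaperone of the lactate carriers, had a log2 fold change of -0.04. The count that fell was 3 without control 3 or Sev 1. Scaling by library size alone gave 1 higher and 6 lower, and limma on log2(FPKM + 1) gave 0 higher, or 2 at an unadjusted p under 0.05, and 5 lower of 12 tested.

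A list of 20 genes known to respond to hypoxia but outside glycolysis held 8 that fell and 3 that rose, with a median of -0.31. Without control 2, control 3, Sev 1 or Sev 3 the number that fell was 5. DDIT4, an inhibitor of mTORC1, had 194, 199.5 and 219.6 CPM in control and 21.4, 29.5 and 22.7 CPM with Sev and fell by 3.06 (SE 0.14, adjusted p = 2.27e-05). KDM4B, a histone demethylase, fell by 0.56 and EGLN3, an oxygen sensor, fell by 1.20. VEGFA, the angiogenic ligand, fell by 0.98 (adjusted p = 0.00428) and BNIP3, a mitophagy receptor, fell by 0.49 (adjusted p = 0.0397). The 3 that rose were BHLHE40, a transcriptional repressor, by 0.57, ADM, the vasodilator peptide adrenomedullin, by 1.07 and ANGPTL4, a lipase inhibitor, by 0.64. Carbonic anhydrase CA9 had a log2 fold change of -0.42 with overlapping groups.

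Of 13 regulators of glycolytic transcription 12 were tested, 2 rose and 2 fell, with a median of -0.10. It was 0.12 without control 1, 0.08 without control 2 and -0.17 without control 3, where all 13 were tested. Without Sev 3 it was -0.04 over the same 12. HIF1A had 608, 652 and 495 CPM in control and 587, 576 and 527 CPM with Sev, with a log2 fold change of -0.05 (adjusted p = 0.724). The groups overlapped. ARNT, its partner subunit, fell by 0.55 and SP1, a general activator, fell by 0.65, whereas EPAS1, another hypoxia-inducible subunit, rose by 0.50. MYC had 38.3, 21.2 and 43.9 CPM in control and 134.5, 136 and 53.1 CPM with Sev, and rose by 1.65 (SE 0.39, adjusted p = 0.011). TXNIP, an inhibitor of glucose uptake, had 686, 237 and 386 CPM in control and 240.4, 216 and 300.1 CPM with Sev, and its log2 fold change of -0.79 had an adjusted p of 0.0937. The count that fell was 1 without control 3 or Sev 1.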

How the data were processed

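The files deposited by the authors hold raw counts of reads and FPKM values, for each feature and library. Notes of the submitters name bcl2fastq 2.19, featureCounts and hg18. The aligner, the annotation, the use of strand and how FPKM were computed are not given in the sources used here. RNA was depleted of ribosomal RNA, and strand-specific adapters were used. Libraries were grouped by their labels, 3 against 3, and no column was left out. Gene names and positions were joined by Ensembl identifier through GENCODE 29 on GRCh38, and promoters come from RefSeq.

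In R 4.3.3, edgeR 4.0.16 (filterByExpr, TMM, glmQLFit, glmQLFTest, no covariate) was run on the counts of all features, with Benjamini-Hochberg adjustment over the 27514 tested and a limit of 0.05. Standard errors are the absolute log2 fold change over the square root of the F statistic. Alternatives were DESeq2 1.42.0 and its size factors, scaling by library size, removal of each library's trend on length, other filters, a replicate block, limma 3.58.1 on log2(FPKM + 1) or log2(FPKM + 0.1) and leaving out each library. The fits were tested on simulated data. Values per library are given for all called genes and for GAPDH, PFKFB3, PKM and LDHA, and, in related lists, up to 3 genes per direction by p are named with TXNIP, VEGFA, BNIP3 and HIF1A. The values of ENO1 in each library, BSG, CA9, PYGL and the overlapping genes were added after they were seen. The results for some genes of the related lists are not reported here. The 34 genes and the lists were chosen with earlier results of these data known.

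Library totals and replicate spread set the precision. Replicates were checked for duplicate deposits by a chi-square test of their counts, allowing for library totals, over the 13668 features with at least 100 counts in every library. At a p under 0.05, the pairs of a group differed in 51.8% to 69.3% of these.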

Additional observations from a re-analysis of the deposited data

How the results depend on the processing

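The called genes kept their side of the threshold in 157 of their results across the alternatives and lost it in 33. Genes that were not called kept it in 305, passed it in 23 and changed sign in 24. The number of genes that rose was 1 with log2(FPKM + 1), 1 with log2(FPKM + 0.1) and 0 with log2(FPKM + 1) without the filter on low values, and from 1 to 5 with each library left out. The number that fell was from 5 to 10 with each library left out. Past the cutoff of the study, 3 genes fell with log2(FPKM + 1) with or without that filter. The median of -0.08 was -0.226 with library size only and from -0.163 to 0.00795 with each library left out. With the replicate block 3 genes rose and 8 fell, 5 passed the cutoff as lower, the median was -0.0855, SLC16A1 was no longer called (adjusted p = 0.0858), and over all features 5228 rose and 5021 fell. The numbers pair nothing in the labels: deviations of same-numbered libraries had r = -0.0072, 0.0035 and 0.027 across genes, and not every library correlated best with its own number.

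Log2 fold changes that changed sign belonged to genes that were not called. For library size only, log2(FPKM + 1), log2(FPKM + 0.1) and log2(FPKM + 1) without filter they were -0.117, -0.101, -0.102 and -0.101 for ALDOA, -0.0803, -0.0444, -0.0705 and -0.0444 for ALDOC, -0.0307, -0.0185, -0.0359 and -0.0185 for PFKFB2, and -0.017, -0.0188, -0.0201 and -0.0188 for PDHB. ENO1 was at -0.0304 with library size only. With each library left out, ALDOA ranged from -0.16 to 0.247, ALDOC from -0.0399 to 0.11, ENO1 from -0.151 to 0.277 and HK1 from -0.173 to 0.0273. By counts in place of FPKM, the share of SLC2A1 in its family differed by 7.1 percentage points and that of SLC2A3 by -7.1, in place of 5.35 and -5.35, and that of SLC16A7 by 0.359. By counts per exon union, that of PDK1 differed by -8.8 in place of -11.7. The causes were not tested. Depth limits PDK4, with 11 to 109 counts a library, more than the other 33 genes.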

Other observations

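Glycogen genes moved in both directions. Of 14 genes, all tested, 4 rose and 4 fell, with a median log2 fold change of -0.06 that was from -0.10 without control 1 to -0.02 without Sev 3 with each library left out, and -0.20 with scaling by library size alone. PYGM, the muscle form of glycogen phosphorylase, had 0.307, 0.328 and 0.597 CPM in control and 6.0, 6.55 and 7.24 CPM with Sev, and rose by 3.98 (SE 0.27, adjusted p = 9.7e-05). PYGB, the brain form, had 485, 536 and 515.5 CPM in control and 967, 1071 and 882 CPM with Sev, and rose by 0.93 (SE 0.10, adjusted p = 0.000372). Both were separate between the groups. GYG1, the glycogen primer glycogenin, rose by 0.52. PPP1R3C, which brings a phosphatase to glycogen, fell by 1.07 and GYS1, the muscle glycogen synthase, fell by 0.42. PYGL, the liver form of the phosphorylase, had a log2 fold change of -0.10 and did not pass the test. The number that fell was 2 without control 2 or Sev 1 and 1 without control 3.

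Of 12 genes of the pentose phosphate pathway, the branch that makes NADPH and ribose from glucose phosphate, 4 rose and 2 fell, with a median of 0.24 that was 0.11 without control 1 and 0.10 with scaling by library size alone. H6PD, an enzyme of the pathway in the endoplasmic reticulum, had 118, 128 and 107 CPM in control and 70.0, 67.1 and 66.9 CPM with Sev and fell by 0.79 (SE 0.09, adjusted p = 0.000485). RPE, an epimerase of the pathway, fell by 0.60. PRPS1, which uses ribose phosphate for nucleotides, and RPIA, which makes it, both rose by 0.51, and TKTL2, a transketolase relative with at most 0.796 CPM, rose by 1.30. The number that rose was 2 without control 3 or Sev 1, and the number that fell was 1 without control 2, control 3 or Sev 2.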
